A study of Mus musculus with 3 samples.

Results

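Binding of NKX2-5 around 9 genes at the output of the Hippo pathway was examined in the mouse embryonic heart. The genes fall into 7 effectors (Yap1, Wwtr1, Tead1, Tead2, Tead3, Tead4 and Vgll4) and 2 target genes (Ctgf and Cyr61), of 22380 protein-coding genes in the annotation. They were chosen by name, and every peak whose midpoint lay within 100 kb of their gene bodies was taken from the lists of both ChIP libraries. This gave 16 peaks in one library and 19 in the other (mean 17.5 ± 2.12, SD, n = 2 libraries). Of the 2546 genomic regions covered by peaks of both libraries, 9 lay near these genes.

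The Hippo pathway is a kinase cascade that restrains growth by holding a pair of related co-activators, YAP1 and TAZ (encoded by Wwtr1), outside the nucleus. In the nucleus the co-activators bind DNA through the TEAD proteins, TEAD1 to TEAD4, while VGLL4 competes with them for TEAD and dampens transcription. Ctgf and Cyr61 encode secreted matricellular proteins of the CCN family and are widely used as readouts of YAP and TEAD activity. In the heart the pathway is known for limiting the proliferation of cardiomyocytes.

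The homeodomain factor NKX2-5 directs early heart development, and the study mapped its positions on chromatin by immunoprecipitation and sequencing (ChIP-seq). Hearts of wild-type Parkes mice at stage E11.5 were used, with the NKX-2.5 (N-19) antibody. ChIP was sequenced in 2 libraries, S1 and S4, of this 1 condition, and the Input (1 library) was not analysed here. Nothing states that the libraries came from separate hearts, so the spread between them may be technical. Whole hearts were used, so the cell types in which a site was bound cannot be told apart, and the tissue could not be checked against marker genes, since no expression was used here.

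S1 held 4418 peaks with a median width of 625 bp and S4 held 5441 peaks with a median width of 783 bp. The score that the peak caller gave each peak had a median of 212 in S1 and 223 in S4. It rises with the evidence for enrichment in its own library and was not scaled between libraries. The lists carry no read numbers, and sequencing depth is therefore unknown. Peaks of S4 covered 1.54 times as many bases as those of S1.

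Sequences under the shared regions are shown first, since the comparison of effectors with targets turns on where these regions lie and what they contain. They were read from the mm9 assembly (NCBIM37) in the direction of transcription of the named gene, 5′ to 3′, around the middle of the stretch covered by both libraries. Capitals mark exact matches on either strand to the NKX2-5 core AAGTG and its longer form TNAAGTG, the MEIS1 core TGACA, and the TEAD core GGAATG. Every match to the longer NKX2-5 form is also a match to the core. The 5 effector regions were as follows.
Wwtr1, intron 4, minus strand, chr3:57274276-57274376: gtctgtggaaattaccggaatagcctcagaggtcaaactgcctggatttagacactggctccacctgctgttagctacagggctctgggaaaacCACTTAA
Tead1, upstream of the gene, plus strand, chr7:119799790-119799890: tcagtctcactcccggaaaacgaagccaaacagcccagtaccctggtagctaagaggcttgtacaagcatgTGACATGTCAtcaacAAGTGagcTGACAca
Tead1, intron 1, plus strand, chr7:119885359-119885459: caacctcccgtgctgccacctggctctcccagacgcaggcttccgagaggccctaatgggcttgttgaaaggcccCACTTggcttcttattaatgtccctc
Tead1, beyond the gene end, plus strand, chr7:120052840-120052940: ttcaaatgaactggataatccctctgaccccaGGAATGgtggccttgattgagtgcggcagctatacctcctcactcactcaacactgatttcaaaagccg
Tead2, upstream of the gene, plus strand, chr7:52380170-52380270: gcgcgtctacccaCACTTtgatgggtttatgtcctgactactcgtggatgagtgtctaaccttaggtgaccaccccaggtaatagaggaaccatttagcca

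For the target genes, the separate upstream region of Ctgf is shown, together with the stretch in front of the Cyr61 start that peaks of both libraries covered. The base after the last one printed for Cyr61 is the first base of the annotated gene.
Ctgf, separate upstream region, plus strand, chr10:24313352-24313452: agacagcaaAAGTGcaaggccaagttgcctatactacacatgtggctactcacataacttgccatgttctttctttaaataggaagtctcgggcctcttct
Cyr61, up to the gene start, minus strand, chr3:145312950-145313034: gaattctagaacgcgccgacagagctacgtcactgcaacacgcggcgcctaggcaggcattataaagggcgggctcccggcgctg

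NKX2-5 peaks lay over both target genes and far from the outermost annotated starts of the effector genes, called gene starts here. Starts of shorter protein-coding transcripts inside the gene did lie in peaks, of both libraries at Tead1 and of S4 at Vgll4. All 6 S1 peaks and all 7 S4 peaks near Ctgf and Cyr61 had their midpoints within 5 kb of the gene start. None of the 10 S1 peaks and none of the 12 S4 peaks near the effectors did, and the nearest effector peaks lay 23.0 kb from the start in S1 and 8.42 kb in S4. The stretch covered by both libraries contained the gene start in 2 of 2 target genes and in 0 of 7 effectors. Among all 22380 protein-coding genes, 240 had their start in such a stretch (1.07%).

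**Figure D1:**
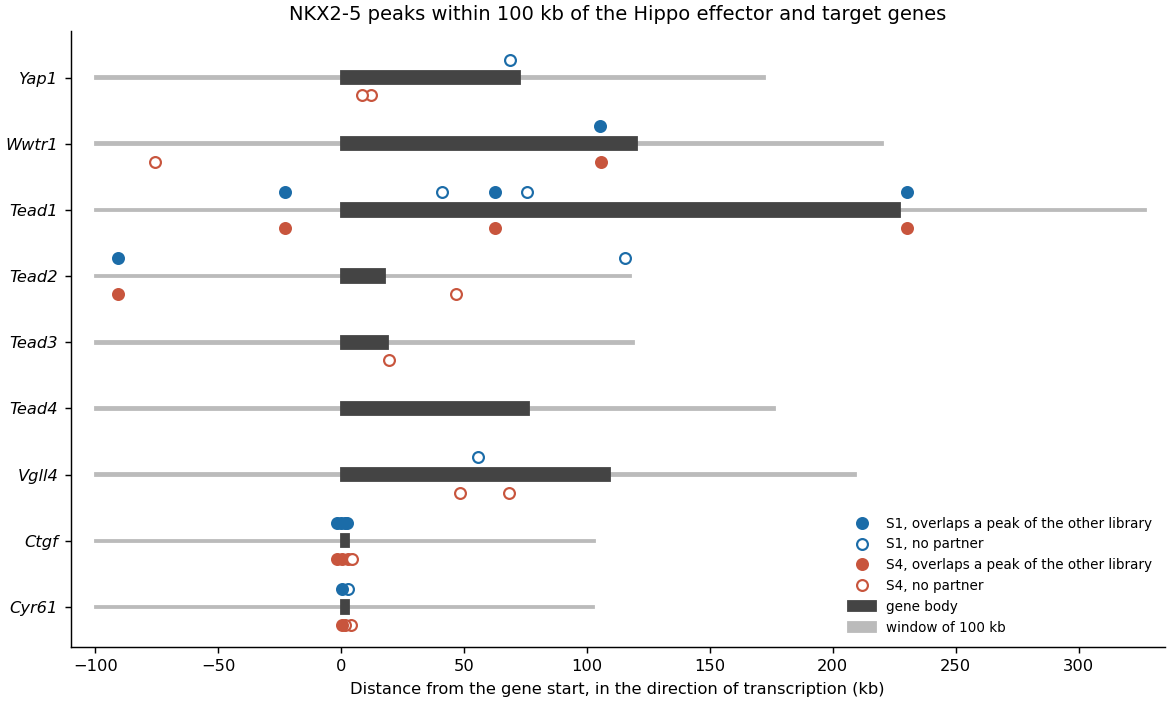
NKX2-5 peaks within 100 kb of the 9 genes, plotted by the distance of the peak midpoint from the gene start in kb, in the direction of transcription. Circles above each line are S1 peaks and circles below are S4 peaks, filled where the peak overlapped a peak of the other library. The peaks of Ctgf and Cyr61 lie within 5 kb of the start. Those of the effectors lie at 8.42 kb or more from the start, and Tead4 has none. The start is the outermost one annotated, and starts of shorter transcripts are not drawn.

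The plot of peak positions by gene shows that most members had a peak, but fewer had one in both libraries at the same place. A peak of S1 lay within 100 kb of 7 of the 9 genes and a peak of S4 within 100 kb of 8 of 9. Among all protein-coding genes these shares were 38.4% for S1 and 44.6% for S4. A region covered by both libraries was found near 5 of the 9 genes, against 24.2% of all protein-coding genes. The 5 genes were Wwtr1, Tead1, Tead2, Ctgf and Cyr61. These shares were not tested, since gene bodies and windows differ in length and neighbouring genes share peaks.

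Corrected for the length searched and pooled by role, the targets carried more peaks than the effectors. The windows of the 7 effectors spanned 2.04 Mb and held 4.89 S1 peaks and 5.87 S4 peaks per Mb. Those of the 2 targets spanned 0.406 Mb and held 14.8 S1 peaks and 17.2 S4 peaks per Mb. Over the windows of all protein-coding genes the densities were 2.11 and 2.60 peaks per Mb. Regions covered by both libraries numbered 5 near effectors (2.45 per Mb) and 4 near targets (9.85 per Mb), with 1.19 per Mb over all genes. The target regions come from only 2 genes, and peaks that lie side by side on 1 gene share their source, so this contrast was described and not tested. It did not hold for every gene. Tead1 had 5 S1 peaks, 3 S4 peaks and 3 shared regions in 427 kb, and Cyr61 had 2, 3 and 1 in 203 kb. Cyr61 was therefore denser than Tead1 in S4 peaks but not in S1 peaks or shared regions.

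Overlap between the libraries was close to that of all peaks. Of the S1 peaks near the 9 genes, 10 of 16 shared at least 1 bp with a peak of S4 (62.5%, 95% Clopper-Pearson interval 35.4 to 84.8), and over the whole S1 list 58.9% did. Of the S4 peaks, 9 of 19 overlapped an S1 peak (47.4%, interval 24.4 to 71.1), against 47% of the whole S4 list. Near effectors the shares were 5 of 10 for S1 (50%, interval 18.7 to 81.3) and 5 of 12 for S4 (41.7%, interval 15.2 to 72.3). Near targets they were 5 of 6 (83.3%, interval 35.9 to 99.6) and 4 of 7 (57.1%, interval 18.4 to 90.1). The intervals of both roles overlap widely and cover counting error only.

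Over all peaks, scores near targets had a higher median than those near effectors in S4 but not in S1. In S1 the peaks near effectors scored between 147 and 261 with a median of 189, and those near targets between 164 and 316 with a median of 183. In S4 the effector peaks scored between 143 and 452 with a median of 219. The target peaks of S4 scored between 245 and 779 with a median of 478. Both medians of S1 lay below the median of all S1 peaks, whereas the target peaks of S4 all scored above the median of that list. The ranges of both roles overlapped in each library. Over shared regions alone, the S1 median was higher near targets, at 227 against 210 near effectors. Peaks near targets were wider in both libraries, with medians of 543 bp near effectors and 660.5 bp near targets in S1, and of 839.5 bp and 1237 bp in S4. Bases under peaks rose from 6244 in S1 to 9566 in S4 near effectors, a ratio of 1.53, which was close to the ratio of 1.54 over all peaks. Near targets they rose from 4319 to 9706, a ratio of 2.25. By gene this ratio was 2.23 at Ctgf and 2.27 at Cyr61. It was higher at Yap1 (2.46), Wwtr1 (2.31) and Vgll4 (2.85), and lower at Tead1 (0.913) and Tead2 (1.19). A ratio of this size was therefore not particular to the targets.

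YAP1 is the transcriptional co-activator at the end of the cascade, and its gene was marked at different places in the 2 libraries. Yap1 lies on the minus strand at chr9:7931999-8004596. S1 had 1 peak at chr9:7935503-7936027 that scored 161 and was 525 bp wide, in intron 8 of 8 and 68.8 kb downstream of the start. S4 had 2 peaks in intron 2, at chr9:7992221-7992819 with a score of 143 and at chr9:7995831-7996520 with a score of 168. They lay 12.1 kb and 8.42 kb downstream of the start. At least 56.2 kb separated the peaks of one library from those of the other, and all of them scored below the median of their list. The nearest region covered by both libraries lay 662 kb from the gene body, and Mmp13 was the gene with the nearest start to it.

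TAZ, the paralogue of YAP1, had 1 shared region within its gene. Wwtr1 lies on the minus strand at chr3:57259571-57379832. The S1 peak at chr3:57274099-57274636 scored 186 and was 538 bp wide, and the S4 peak at chr3:57273969-57274554 scored 211 and was 586 bp wide. Both lay in intron 4 of 6, about 106 kb downstream of the Wwtr1 start and 45.1 kb from the start of Tm4sf4, which was the nearer one. A further S4 peak at chr3:57455209-57455865 scored 174 and had no partner in S1. It lay 0.078 kb from the start of Commd2 and 75.7 kb upstream of Wwtr1.

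TEAD1, a DNA-binding partner of YAP1 and TAZ, had the most shared regions of the effectors. Tead1 lies on the plus strand at chr7:119822832-120050319, and 3 regions covered by both libraries lay within 100 kb of it. Fewer than 3 were found near 97.9% of protein-coding genes, and the Tead1 body of 227 kb is the longest among the members. The region 23.0 kb upstream of the start had an S1 peak at chr7:119799443-119800238 with a score of 210 and an S4 peak at chr7:119799369-119800354 with a score of 227. It lay inside an intron of 2310014F06Rik, a long intergenic non-coding RNA on the opposite strand. The region in intron 1, 62.6 kb downstream of the start, had an S1 peak at chr7:119885006-119885756 with a score of 225 and an S4 peak at chr7:119885062-119886015 with a score of 452. Both peaks contained the start of a shorter protein-coding Tead1 transcript at chr7:119885559, which lies 62.7 kb into the gene.

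The third Tead1 region lay just past the gene end. It had an S1 peak at chr7:120052677-120053104 that scored 149 over 428 bp, and an S4 peak at chr7:120052425-120053405 that scored 236 over 981 bp. Its midpoint was 2.57 kb beyond the gene body and 230 kb from the start. S1 had 2 more peaks in intron 1, at chr7:119863672-119864115 with a score of 168 and at chr7:119898242-119899020 with a score of 191. The nearest S4 peaks to them were 20.9 kb and 12.2 kb away. Tead1 was therefore the only member with more peaks in S1 (5) than in S4 (3).

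The other TEAD genes, which encode further DNA-binding partners of YAP1 and TAZ, had few peaks. Tead2 lies on the plus strand at chr7:52471123-52489005. Its 1 shared region was 90.9 kb upstream, with an S1 peak at chr7:52379832-52380839 that scored 245 and an S4 peak at chr7:52379740-52380609 that scored 299. An S1 peak at chr7:52586540-52586966 with a score of 261 had no partner and lay 2.36 kb from the start of Trpm4. An S4 peak at chr7:52517563-52518395 with a score of 201 also had none, 29.0 kb beyond the Tead2 body. No base of the Tead2 body was covered in either library.

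Tead3 and Tead4 had no shared region. Tead3 lies on the minus strand at chr17:28468616-28487750, and the only peak near it was an S4 peak at chr17:28468011-28468856 with a score of 305. This peak reached 241 bases into the end of the gene, and its midpoint was 2.21 kb from the start of Rpl10a, a ribosomal protein gene. The nearest S1 peak lay 296 kb away. Tead4 lies on the minus strand at chr6:128174306-128250841 and had no peak in either library. The nearest S1 peak was 348 kb from its body with a score of 222, and the nearest S4 peak was 124 kb away with a score of 148. The lists hold only peaks that passed the caller's threshold, so weaker binding near these genes was not detectable here.

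VGLL4, the competitor of YAP1 for TEAD, had peaks of both libraries in its gene but none at the same place. Vgll4 lies on the minus strand at chr6:114810646-114920012. S1 had 1 peak at chr6:114864096-114864643 with a score of 147, 55.6 kb downstream of the start in intron 2 of 4. S4 had a peak at chr6:114851336-114852304 with a score of 277, 68.2 kb downstream, and a second at chr6:114871571-114872165 with a score of 152, 48.1 kb downstream. The second S4 peak contained the start of a shorter protein-coding Vgll4 transcript at chr6:114871839. Gaps of 6.93 kb and 11.8 kb separated the S1 peak from its S4 neighbours. No region covered by both libraries was found within 100 kb of Yap1, Tead3, Tead4 or Vgll4.

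Ctgf (connective tissue growth factor) carried a row of 4 peaks from upstream of its start into its body in both libraries. Ctgf lies on the plus strand at chr10:24315248-24318489, with 5 exons in 3.24 kb. S1 had 4 peaks, and the highest, at chr10:24314991-24315766 with a score of 279, lay over the gene start. The others were at chr10:24313124-24313681 with a score of 167, at chr10:24316467-24317104 with a score of 164 and at chr10:24317187-24317869 with a score of 175. S4 also had 4 peaks, which were wider. The peak over the start at chr10:24314888-24316351 scored 591, and the upstream peak at chr10:24313044-24314083 scored 478. The peak over the 3′ portion of the gene at chr10:24316765-24318948 scored 779 with a width of 2184 bp. The last, at chr10:24319065-24320301, scored 593, lay 1.19 kb past the gene end and had no partner in S1.

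**Figure D2:**
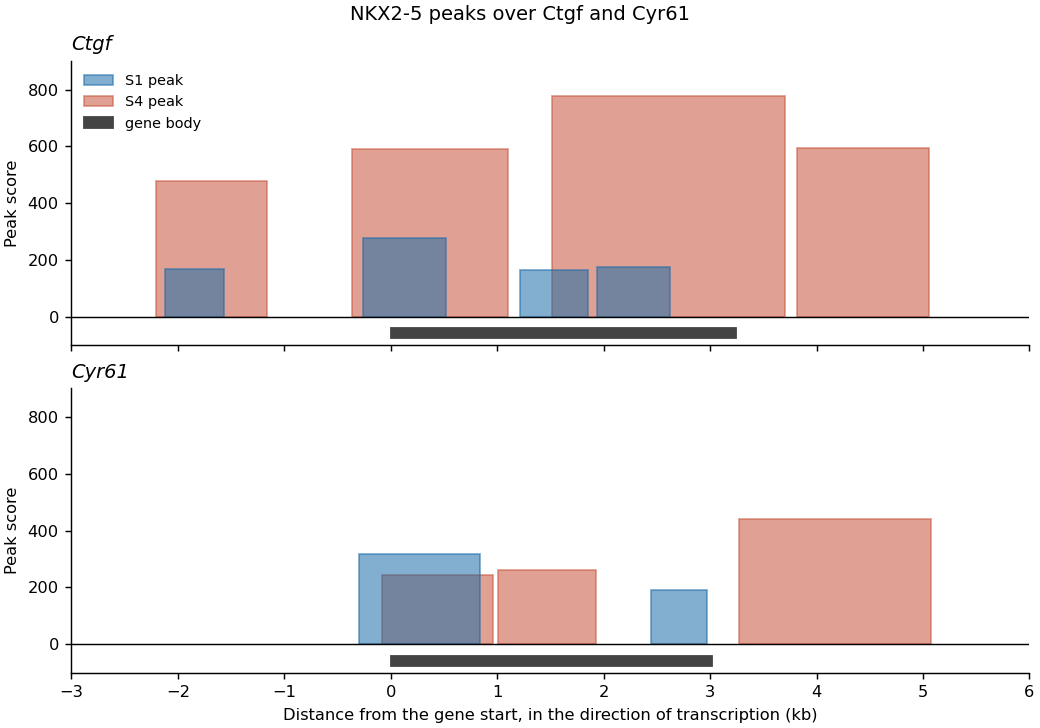
Peaks of S1 and S4 over Ctgf and Cyr61, with the distance from the gene start in kb on the horizontal axis and the peak score on the vertical axis. Each box spans 1 peak and reaches to its score, and dark bars mark the gene bodies. Over Ctgf the S4 boxes are taller and wider than the S1 boxes, whereas over the start of Cyr61 the S1 box (316) is taller than the S4 box (245).

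The peaks of Ctgf merged into 3 shared regions. Their midpoints lay 1.85 kb upstream of the start, 0.131 kb downstream of it in exon 1, and 2.07 kb downstream in exon 5. The last joined 2 S1 peaks to 1 S4 peak. The S4 score exceeded the S1 score 2.86-fold in the upstream region, 2.12-fold at the start and 4.45-fold in exon 5. On the log2 scale these differences were 1.52, 1.08 and 2.16, and the median of all shared regions was 0.16. They exceeded those of 96.8%, 90.9% and 99.5% of all shared regions. The regions upstream and at the start lay within Gm15270, a long intergenic non-coding RNA annotated on the opposite strand. The exon 5 region contained the annotated start of Gm15270.

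Cyr61 (cysteine-rich 61), the other CCN gene, had a similar layout with fewer peaks. Cyr61 lies on the minus strand at chr3:145309935-145312949, with 5 exons in 3.02 kb. Peaks of both libraries lay over its start, at chr3:145312115-145313251 with a score of 316 in S1 and at chr3:145311987-145313034 with a score of 245 in S4. The log2 ratio of S4 to S1 there was -0.37, and 19.8% of all shared regions had a lower one. The remaining peaks had no partner. S1 had a peak in exon 5 at chr3:145309974-145310500 with a score of 191. S4 had a peak within the gene at chr3:145311019-145311945 with a score of 260 and another at chr3:145307874-145309679 with a score of 442, 1.16 kb past the gene end. Small distances separated these from peaks of the other library, 0.294 kb for the S1 peak and 0.169 kb for the S4 peak within the gene.

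Coverage of the gene body set both targets apart from most short genes in the annotation. Peaks covered 56.8% of the Ctgf body in S1 and 87.3% in S4. For Cyr61 the shares were 45.2% in S1 and 62.7% in S4. At least 50% of the body was covered in 17 of 5854 genes shorter than 5 kb in S1 (0.29%) and in 51 of them in S4 (0.871%). Ctgf was among the 12 genes that passed in both libraries, and Cyr61 passed in S4. More of the body was covered in 13 genes than in Ctgf in S1, and in 15 genes in S4. Nppb and the histone genes Hist1h1c and Hist1h1e were among them in both libraries, so such cover was not particular to the targets. The effectors are longer genes, and no more than 1.78% of any effector body lay under peaks in either library.

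**Figure D3:**
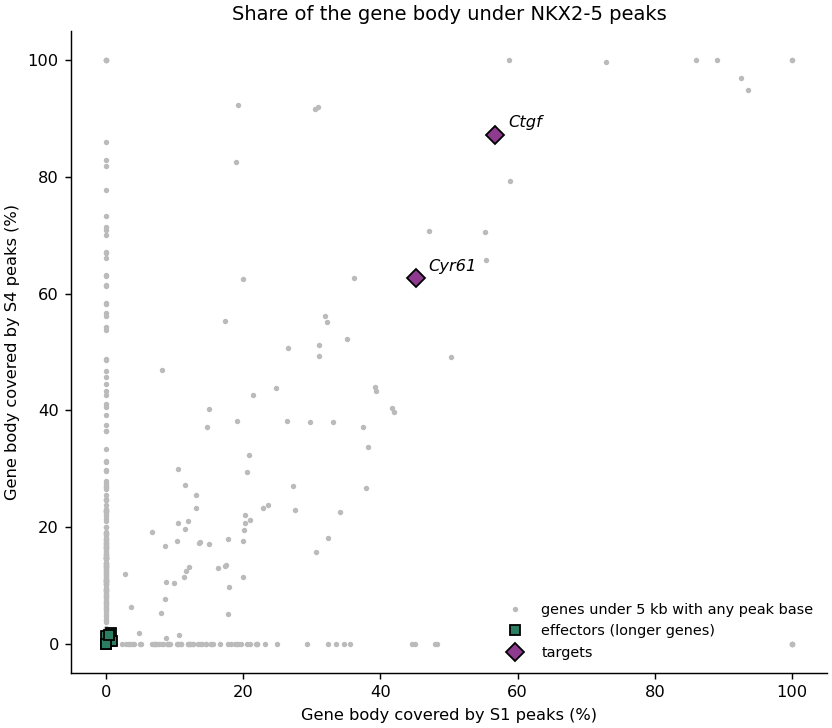
Share of the gene body under NKX2-5 peaks in S1 (horizontal axis) and in S4 (vertical axis), in percent. Grey points are genes shorter than 5 kb with at least 1 base under a peak, diamonds are the target genes and squares the longer effector genes. Ctgf lies at 56.8% and 87.3%, Cyr61 at 45.2% and 62.7%, and all effectors lie close to 0.

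The rows of peaks over the targets were not continuous. From the first to the last S1 peak of Ctgf was 4746 bp, of which 55.9% lay under peaks, and the S4 peaks spanned 7258 bp, of which 81.6% did. The gaps between the S4 peaks of Ctgf measured from 116 to 804 bp. Over Cyr61 the S1 peaks spanned 3278 bp (50.8% covered) and the S4 peaks 5161 bp (73.3% covered). Having 4 or more peaks within 5 kb of the body was uncommon, with 66 such genes in S1 and 107 in S4. Ctgf was among them in both libraries, and Tead1 was in S1.

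Compared with all shared regions, the effector regions had low median scores in both libraries, and the target regions had a low median in S1 and a high one in S4. The median S1 score was 210 for the effector regions and 227 for the target regions, and 280 over all shared regions. The median S4 score was 236 for effectors and 535 for targets, and 315 over all. In S4 the Ctgf regions scored 478, 591 and 779, and the Cyr61 region scored 245. The log2 ratio of S4 to S1 ranged from 0.11 to 1.01 near effectors with a median of 0.29, and from -0.37 to 2.16 near targets with a median of 1.30. Among the effectors the ratio was highest in intron 1 of Tead1, above 89.5% of all shared regions. Ctgf accounted for the 3 highest ratios of the 9, and Cyr61 for the lowest. Without read numbers a difference in score cannot be separated from a difference in depth.

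**Figure D4:**
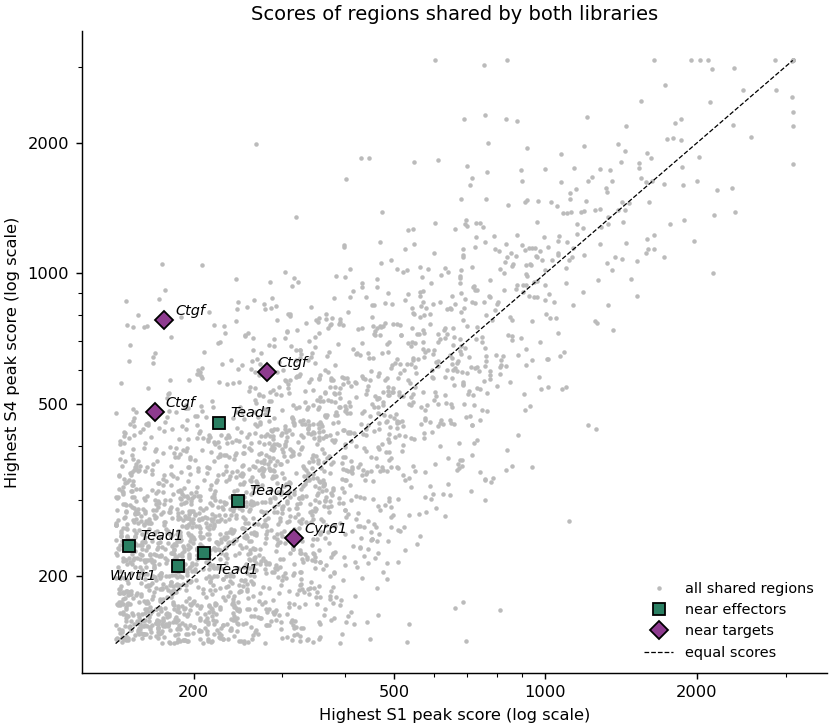
Highest S1 score (horizontal axis) and highest S4 score (vertical axis) of each of the 2546 shared regions, on log scales. Squares are regions near effectors, diamonds regions near targets, grey points all others, and the dashed line marks equal scores. The 3 Ctgf regions lie well above the line, Cyr61 lies below it, and the 5 effector regions lie above it.

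Base composition was richest in G and C at the target starts. The G and C content of the effector regions ran from 44.3% to 52.6% with a median of 48.8%, beside a median of 48.1% over all shared regions. The regions over the starts of Ctgf and Cyr61 reached 59.8% and 60.9%. The remaining target regions were not as rich, the lowest at 46.6%. Shared regions as a whole lay a median of 24.9 kb from the nearest protein-coding transcript start. Whether base composition or the position at a gene start bore on the scores was not tested.

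Motifs were counted out to 100 bp from the midpoint of each region in both directions, and the short NKX2-5 and MEIS1 cores were about as frequent near the members as over all shared regions. AAGTG was found in 6 of 9 regions (4 near effectors and 2 near targets) and in 64.0% of all shared regions. The MEIS1 core TGACA was found in 5 of 9 and in 64.3% of all. TNAAGTG was found in 1 of 9, the Wwtr1 region, against 32.4% of all. The spaced form GTGNTGACA, which contains the MEIS1 core, was found in none of the 9 and in 9.47% of all. The GATA core GATAAG was found in 1 of 9 and in 16.0% of all. No match to AAGTG lay within 25 bp of the midpoint in any of the 9 regions, and 22.3% of all shared regions had one there. These are exact strings in a fixed window and are descriptions only.

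Matches to the TEAD core GGAATG were found in 3 of the 9 windows and in 15.0% of all. Those 3 regions lay upstream of Tead1, past the end of Tead1 and upstream of Ctgf. Over the whole stretches covered by both libraries, the members held 9 matches, 3 near effectors and 6 near targets. This is 0.951 per kb near effectors and 1.79 per kb near targets, beside 0.733 per kb over all shared regions. AAGTG in the same stretches occurred 1.59 times per kb near effectors and 3.27 times near targets, with 3.71 over all. TGACA occurred 5.39 times per kb near effectors and 3.27 times near targets, with 3.91 over all. The longer NKX2-5 form was found in 5 of the 9 whole stretches and in 55.1% of all. Near effectors it had 1 match, in the Wwtr1 stretch (0.317 per kb). Near targets it had 6 matches (1.79 per kb), with at least 1 in each stretch. The effector rate lay below that of all shared regions and the target rate above it. Its low count in the windows therefore extended to the effector stretches but not to the target stretches.

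In the printed Tead1 upstream sequence a pair of TGACA cores abutted head to head as TGACATGTCA, which was found in 5 of 2546 windows (0.196%). It was noticed in the printed sequence and counted afterwards.

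Other Hippo genes often had peaks nearby, but only 1 of them had its outermost annotated start in a stretch covered by both libraries. Of 34 other genes of the pathway, 20 had an S1 peak within 100 kb, 22 an S4 peak and 15 a shared region (44.1%, beside 24.2% of all protein-coding genes). These shares were not tested either, since windows differ in length and neighbouring genes share peaks. Shared regions were found near 4 of 7 genes of the kinase core, which phosphorylates YAP1 and TAZ. Stk4, encoding the MST1 kinase, had the highest-scoring of these regions (1125 in S1, 1382 in S4). It lay 16.3 kb before the Stk4 start but nearer to that of Pabpc1l. The regions near Lats1, Lats2 and Mob1b also lay nearer to starts of other genes, which were Pcmt1, N6amt2 and Dck. Among upstream regulators 8 of 18 had a shared region. For Amotl1 and Amotl2, angiomotin-like proteins that bind YAP1, it lay 0.741 kb and 1.13 kb downstream of the gene start. The region near Limd1 was also nearest to the start of Limd1 itself. For Taok1, Taok2, Jub, Ptpn14 and Rassf1 the highest-scoring shared region lay nearer to the start of another gene. Among the remaining VGLL cofactors 1 of 3 had a shared region, which lay 60.7 kb upstream of Vgll2.

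Of the other known targets of YAP and TEAD, 2 of the 6 counted in this group had a shared region. Lats2 and Amotl2 are also known targets but were counted in the kinase core and among upstream regulators. Each of them had 1 shared region. That of Lats2 lay 151 kb downstream of its start and nearer to the start of N6amt2, and that of Amotl2 lay 1.13 kb downstream. Ankrd1 is a muscle ankyrin-repeat protein and also a marker of YAP activity. Of the 34 genes, only Ankrd1 had its outermost annotated start in a shared stretch. It had 6 S1 peaks and 5 S4 peaks that formed 5 shared regions, and peaks covered 20.7% of its body in S1 and 82.3% in S4. Its highest region scored 877 in S1 and 2252 in S4. Axl, a receptor tyrosine kinase, had 2 shared regions, the higher of which lay 0.87 kb from the start of Hnrnpul1. Birc5, Areg, Ccnd1 and Myc had none.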

How the data were processed

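The study immunoprecipitated NKX2-5 from fixed, homogenised and sonicated E11.5 hearts, sequenced 2 ChIP libraries and 1 Input on a Genome Analyzer IIx, aligned reads to mm9 with Bowtie and called peaks with MACS 1.4. The settings of these tools, and whether the Input served as control, were not given in the sources used here. Peaks were deposited as a separate list for each ChIP library, and the deposited score is 10 times the negative log10 of the caller's p-value as read from its values, none below 140. The start and end columns are positions in bp.

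Gene positions were taken from GENCODE M1, which uses the same assembly (NCBIM37), and coordinates are counted from 1. Peaks were assigned to a gene when their midpoint lay within 100 kb of its body. Overlapping peaks of both lists were merged into shared regions, which keep the highest score of each library. Intervals are exact Clopper-Pearson intervals and, like the counts, cover counting error only. Each member was named with all of its peaks, and with the nearest peak where it had none. The sequence rule was the highest-scoring shared region of each member. The further Tead1 and Ctgf regions were added to it, and the stretch before the Cyr61 start replaced a window that held transcribed sequence. The corresponding Ctgf stretch is not reported here. The members, the list of other pathway genes and the motifs were chosen with earlier results of these data known. The assignment was tested on simulated peaks. Python 3.11.15 with numpy 2.4.6, pandas 2.3.3, scipy 1.17.1, pysam 0.24.0 and matplotlib 3.10.9, and samtools 1.23.1, were used.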

Additional observations from a re-analysis of the deposited data

How the results depend on the processing

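Of 62 alternative values for the 10 main results, 41 stayed in place and 21 moved. The mean number of peaks counted as moved when it changed by more than 1 SD of the libraries, a count of regions or genes by over 1.5 times, a percentage outside its interval, and a median by any amount. Leaving out S1 or S4 gave 16 to 19 peaks near the members, and the other results need both libraries. Within 50 kb the median scores of the effector regions were 198.17 in S1 and 231.3 in S4. Within 200 kb the mean number of peaks was 22, and the medians were 217.52 (S1) and 231.3 (S4) for effectors and 231.94 (S1) and 478.1 (S4) for targets. With a score of at least 200 the mean was 10.5 peaks, with 3 shared regions near effectors and 2 near targets, and medians of 224.88 (S1) and 299.14 (S4) for effectors and 297.735 (S1) and 418.05 (S4) for targets. When peaks had to overlap by 50% or more of each, the medians were 217.52 and 263.085 for effectors and 279.34 and 478.1 for targets. When only peaks nearest to a member's own start were taken, the mean was 13.5 peaks, 3 shared regions lay near effectors, and 3 members had a shared region. The median S4 score of shared regions stayed higher near targets than near effectors in each of these settings, and so did the median S1 score. No setting left out Ctgf, which held 3 of the 4 target regions within 100 kb. The Cyr61 region scored 245 in S4, below effector regions at Tead1 (452) and Tead2 (299). The motif counts per kb of shared stretch were added after seeing the data. No paired analysis was possible because there was 1 condition. Depth is unknown, so the precision of a score and the weakest detectable binding cannot be given.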
